A study of Mus musculus with 52 samples.

Results

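The kidneys described here came from 6-month-old female NZB/W-F1 mice, set against kidneys of C57BL/6 females of the same age, and every gene of the deposited kidney table was compared. The 6 libraries, 3 from each strain, were chosen by their titles from the 52 RNA-seq libraries of kidney, spleen and brain in the series. NZB/W-F1 mice are hybrids with an NZB mother and an NZW father that carry the alleles of both strains, and at 6 months they were at the nephritic stage, which the study defined by proteinuria that lasted 3 consecutive days. The C57BL/6 mice are an inbred strain labelled healthy, and mice of both strains were perfused with PBS before the organs were taken. The same comparison was available in kidneys taken at 1 month, before puberty, and at 3 months, before autoimmunity, with 3 libraries of each strain at each age. The spleens at 6 months comprised 3 NZB/W-F1 and 2 C57BL/6 libraries, and the brains 3 of each. The hybrids differ from C57BL/6 mice in their whole genetic background as well as in disease, and the 2 cannot be told apart at 6 months alone.

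In lupus, antibodies against nuclear material form immune complexes that lodge in the glomerulus, where they engage complement and Fc receptors and draw in leukocytes. The resulting nephritis damages podocytes and capillary endothelium, lets protein into the urine, and injures the tubule cells that take up that protein. Kidney RNA from such animals therefore holds transcripts of resident cells, of infiltrating leukocytes and of cells that divide during repair.

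The labelled tissue was checked against markers of its cells. Umod, the uromodulin gene of the thick ascending limb, averaged 1574 CPM, read counts scaled to a common library size, in NZB/W-F1 kidneys and 1593 CPM in C57BL/6 kidneys, and Aqp2, the water channel of the collecting duct, averaged 484 CPM in NZB/W-F1 kidneys and 331 CPM in C57BL/6 kidneys. H2-Ea-ps, which C57BL/6 mice carry as a defective MHC class II gene, had 141, 136 and 81.3 CPM in NZB/W-F1 kidneys and no read in any C57BL/6 kidney, so each library matched its strain label. The NZB/W-F1 libraries held 9241576 to 10275039 reads in genes and the C57BL/6 libraries 7305655 to 12233870, so that 3 reads, the limit below which a gene was treated as not detected, corresponded to 0.189 to 0.305 CPM. Principal component 1 of the 6 libraries held 60.7% of the variance and separated the strains. Component 2 held 17.1% and separated NZB/W-F1 replicate 2, with a loading of -0.68, from NZB/W-F1 replicate 3, with a loading of 0.68. One library went against its label. Xist, the RNA that coats the inactive X chromosome of female cells, had 1.38 CPM in NZB/W-F1 replicate 3 and 274 to 524 CPM in the other 17 kidney libraries, and replicate 3 of the same group also stood at 1.44 CPM in spleen and 0.857 CPM in brain, where the other libraries had 781 to 1712 CPM and 306 to 729.6 CPM. All of these mice are labelled female, and results that rest on NZB/W-F1 replicate 3 are therefore also given without it. The labels give each library a code that differs within a group and recurs in the other organs of the same age, without saying what it names, so p-values measure only the spread between these libraries.

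Of 14373 genes tested, 818 differed between NZB/W-F1 and C57BL/6 kidneys at 6 months, which is 5.69% of those tested, by limma with a Benjamini-Hochberg adjusted p under 0.05. Of these, 498 were higher in NZB/W-F1 kidneys, 3.46% of the genes tested, and 320 were lower, 2.23%. The fitted change was at least 2-fold for 551 of the 818. The values of the 2 groups did not overlap for 810 of the 818 genes called, and for 27.8% of all genes tested. The median log2 fold change over all genes tested was 0.01, the value against which the medians of gene groups are set below. Leaving out 1 library gave between 488 calls, without C57BL/6 replicate 2, and 750 calls, without NZB/W-F1 replicate 3, of which 510 were higher and 240 lower.

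**Figure D1:**
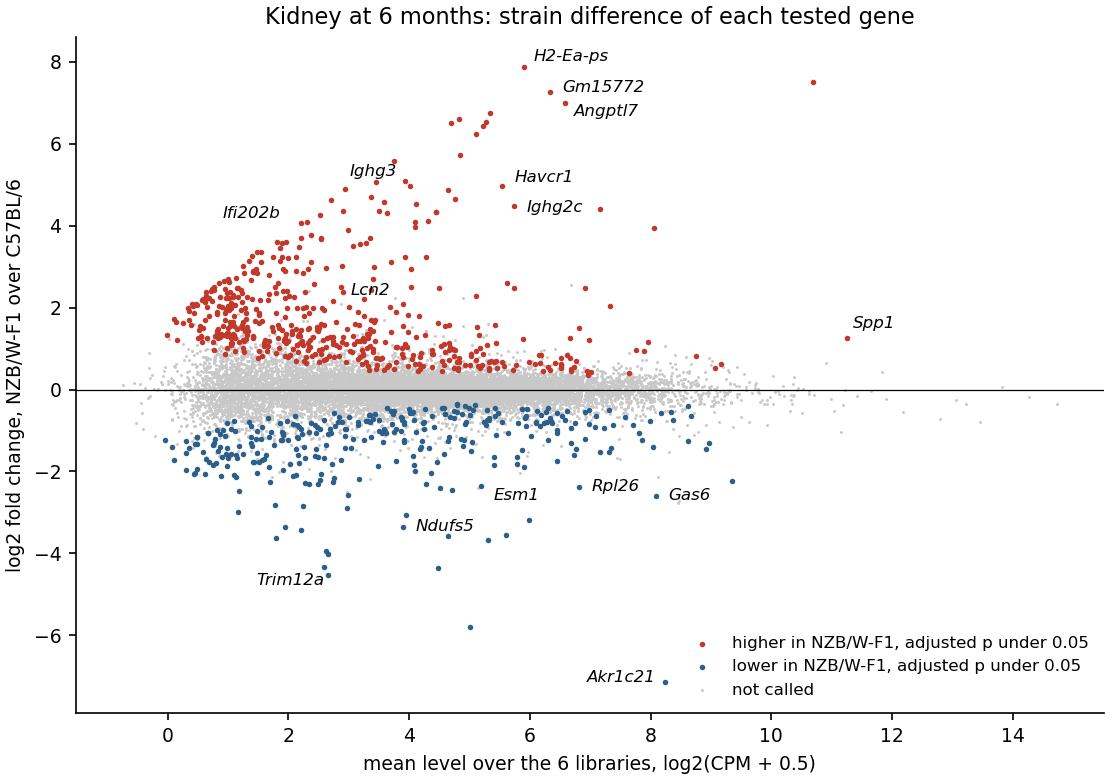
Each point is 1 of the 14373 genes tested in kidney at 6 months, with its mean level over the 6 libraries on the x axis, as log2(CPM + 0.5), and the log2 fold change of NZB/W-F1 over C57BL/6 on the y axis. Red points are the 498 genes called higher in NZB/W-F1 and blue points the 320 called lower, at an adjusted p under 0.05; H2-Ea-ps at 7.86 and Akr1c21 at -7.14 mark the upper and lower ends among the labelled genes.

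Transcripts of several antibody chains were higher in the nephritic kidneys. Of 9 immunoglobulin constant-region genes tested, 6 were higher in NZB/W-F1 kidneys and none was lower, with a median log2 fold change of 1.58. Their summed level did not separate the groups. It was 594, 1167 and 843 CPM in NZB/W-F1 kidneys and 421, 635 and 359 CPM in C57BL/6 kidneys. Ighg3, which encodes the IgG3 heavy chain (chr12:113356224-113361232, minus strand, GRCm38), had 34.7, 40.8 and 17.1 CPM in NZB/W-F1 kidneys, against 0.957, 0.126 and 0.406 CPM in C57BL/6 kidneys. Every NZB/W-F1 kidney was above every C57BL/6 kidney, with a log2 fold change of 4.97 ± 0.44 (SE; limma adjusted p = 1.0e-06). Ighg2c, the heavy chain of a complement-fixing IgG subclass, had 52.6, 137 and 115 CPM in NZB/W-F1 kidneys, against 5.06, 7.77 and 1.12 CPM in C57BL/6 kidneys. Its log2 fold change was 4.49 ± 0.65 (SE; limma adjusted p = 2.6e-04). Ighg2b had 12.8, 67 and 36.8 CPM in NZB/W-F1 kidneys, against 5.74, 6.32 and 4.17 CPM in C57BL/6 kidneys, with replicate 1 the nearest to the C57BL/6 range.

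Ighm, the IgM heavy chain, was 3.31-fold higher by the ratio of group means, at 43.8, 106 and 45.0 CPM in NZB/W-F1 kidneys and 20.6, 16.9 and 21.5 CPM in C57BL/6 kidneys (limma adjusted p = 0.003). Ighg1 was the uneven member of the group. It had 32.4 and 25.1 CPM in NZB/W-F1 replicates 1 and 2 but 0.826 CPM in replicate 3, inside the C57BL/6 range of 0.508 to 1.09 CPM, and its limma adjusted p of 0.041 became 0.216 without NZB/W-F1 replicate 1 and was lost without any other library but NZB/W-F1 replicate 3. The light-chain gene Iglc2 had 2.31, 3.47 and 2.20 CPM in NZB/W-F1 kidneys, against 0.820, 0.947 and 0.914 CPM in C57BL/6 kidneys; without NZB/W-F1 replicate 2 its limma adjusted p was 0.056. Igha, the heavy chain of mucosal IgA, averaged 196 CPM in NZB/W-F1 kidneys and 237 CPM in C57BL/6 kidneys and did not pass the test. Of 28 antibody V segments tested, 12 were higher in NZB/W-F1 kidneys and 0 were lower, with a median log2 fold change of 1.11, beside 3.46% of all genes tested called higher. Among 27 annotated as V genes, 11 were higher. Of these 11, 3 had no C57BL/6 library at 1 CPM, so they entered the test through NZB/W-F1 libraries alone.

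Genes of B cells and of antibody-secreting cells followed in part. Cd22, a surface inhibitor of B cell receptor signalling, had 5.89, 5.37 and 5.44 CPM in NZB/W-F1 kidneys, against 0.683, 0.442 and 0.406 CPM in C57BL/6 kidneys. The 3 NZB/W-F1 values lay close together and far above the others, with a log2 fold change of 2.6 ± 0.27 (SE; limma adjusted p = 6.7e-06). Ms4a1, which encodes CD20, had 1.27, 3.14 and 3.10 CPM in NZB/W-F1 kidneys, against 0.547, 0.0632 and 0.102 CPM in C57BL/6 kidneys, and its log2 fold change was 2.01 ± 0.38 (SE; limma adjusted p = 0.0033). Spib and Cd79b, a B cell transcription factor and a part of the B cell receptor, completed 4 of 8 B cell genes called higher, with a median log2 fold change of 1.28 over the 8. Both of these last calls were lost when any 1 of the 6 libraries was left out, with limma adjusted p-values of up to 0.138 for Spib and 0.167 for Cd79b.

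Among 13 plasma cell genes, 2 were higher and 1 was lower, with a median log2 fold change of 0.10. Pou2af1, a coactivator needed for antibody gene transcription, had 1.86, 4.38 and 3.37 CPM in NZB/W-F1 kidneys, against 0.752, 0.758 and 0.711 CPM in C57BL/6 kidneys. Mzb1, a chaperone for antibody assembly, had 3.5, 6.45 and 6.82 CPM in NZB/W-F1 kidneys, against 1.16, 2.53 and 1.52 CPM in C57BL/6 kidneys. The groups did not overlap for either gene, and the limma adjusted p-values were 0.0032 and 0.0066. Jchain, the joining chain of IgA and IgM, averaged 114 ± 40.1 CPM in NZB/W-F1 kidneys and 55.3 ± 11.2 CPM in C57BL/6 kidneys (SD, n = 3 each) without passing (limma adjusted p = 0.15). Slamf7, a receptor of plasma and NK cells, was the member that was lower, at 1.56 ± 0.452 CPM in NZB/W-F1 kidneys and 3.34 ± 0.364 CPM in C57BL/6 kidneys (SD, n = 3 each; limma adjusted p = 0.03), and it was also lower at 1 and at 3 months. Its 6-month call was lost without NZB/W-F1 replicate 1 or any 1 C57BL/6 library, with pseudocount 0.1 and with only the 6 compared libraries in the fit, at a limma adjusted p of up to 0.159. In bulk RNA a change in the number of cells of a type and a change in the RNA per cell cannot be told apart.

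**Figure D2:**
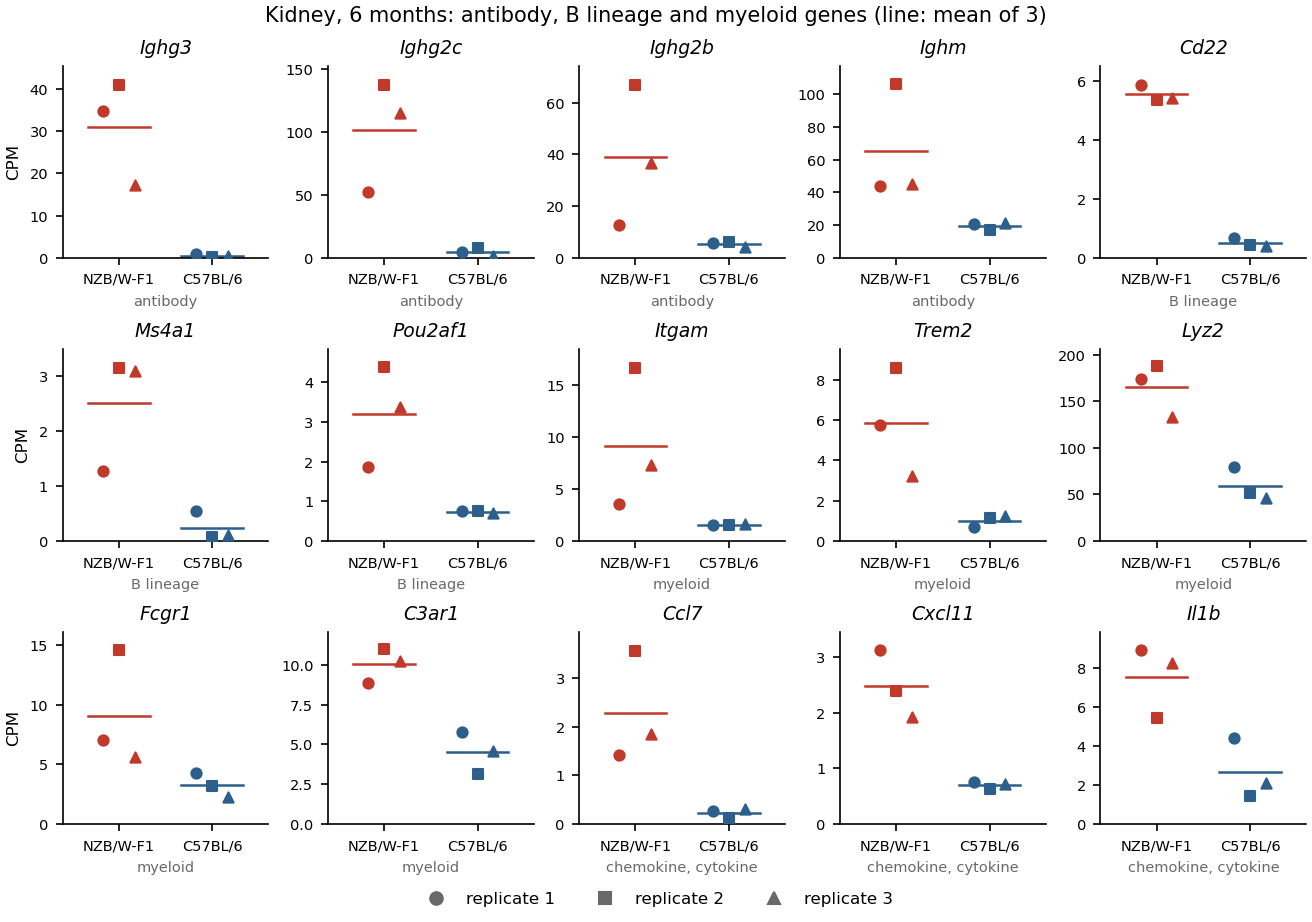
Level of 15 antibody, B lineage, myeloid and chemokine or cytokine genes in kidney at 6 months, in CPM on linear axes that start at 0, with NZB/W-F1 libraries in red at the left and C57BL/6 libraries in blue at the right of each panel. Each symbol is 1 library, its shape the replicate number, and the line the mean of 3; Cd22 sits at 5.37 to 5.89 CPM in NZB/W-F1 and at 0.406 to 0.683 CPM in C57BL/6, whereas Itgam and Ighg2b are highest in NZB/W-F1 replicate 2.

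Some macrophage genes were higher as well. Of 20 macrophage genes, 6 were higher and 0 were lower, 19 had a positive log2 fold change, and the median was 0.87. Itgam, the CD11b integrin of monocytes and neutrophils, had 3.58, 16.7 and 7.30 CPM in NZB/W-F1 kidneys, against 1.57, 1.52 and 1.63 CPM in C57BL/6 kidneys. Its log2 fold change was 1.98 ± 0.37 (SE; limma adjusted p = 0.003), with replicate 2 the highest. Trem2, a lipid-sensing receptor of macrophages, had 5.74, 8.60 and 3.24 CPM in NZB/W-F1 kidneys, against 0.683, 1.14 and 1.22 CPM in C57BL/6 kidneys (log2 fold change 2.00 ± 0.33 SE; limma adjusted p = 8.8e-04). Lyz2, the lysozyme of phagocytes, had 174, 188 and 133 CPM in NZB/W-F1 kidneys, against 79.2, 51.9 and 45.7 CPM in C57BL/6 kidneys. Cd14, the co-receptor for lipopolysaccharide, had 55.2, 31.3 and 21.4 CPM in NZB/W-F1 kidneys, against 10.7, 10.3 and 12.4 CPM in C57BL/6 kidneys. The groups did not overlap for any of these 4 genes.

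The complement and Fc receptor lists gave 3 calls, beside 3.46% of all genes tested called higher and 2.23% called lower. C3ar1, the receptor for the C3a fragment, was the 1 of 22 complement genes called higher, at 8.87, 11 and 10.3 CPM in NZB/W-F1 kidneys and 5.81, 3.16 and 4.57 CPM in C57BL/6 kidneys (limma adjusted p = 0.0094, and 0.07 without C57BL/6 replicate 2). The list's median log2 fold change was 0.16, none was called lower, and the first-component gene C1qb had 62.7, 148 and 72.7 CPM in NZB/W-F1 kidneys against 65.1, 42.4 and 49.6 CPM in C57BL/6 kidneys, with replicate 1 inside the C57BL/6 range. C4a had a log2 fold change of 1.54 and did not pass (limma adjusted p = 0.051). It passed in edgeR, with pseudocount 0.1, with the replicate block and with only the 6 compared libraries in the fit. Each of these settings gave 2 higher complement genes, and the last also gave 2 lower ones. Of 9 Fc receptor genes, 1 was higher and 1 was lower. Fcgr1, the high-affinity receptor for IgG, averaged 9.05 ± 4.82 CPM in NZB/W-F1 kidneys and 3.25 ± 1.04 CPM in C57BL/6 kidneys (SD, n = 3 each; limma adjusted p = 0.032), a call lost when any 1 of replicates 1 and 2 of NZB/W-F1 and 2 and 3 of C57BL/6 was left out, with a limma adjusted p of up to 0.153. Fcgr2b, the inhibitory IgG receptor (chr1:170958617-170976547, minus strand), had 24.9, 24.1 and 15.4 CPM in NZB/W-F1 kidneys, against 41.9, 34.7 and 38.7 CPM in C57BL/6 kidneys. It was lower at every age, with log2 fold changes of -1.08 at 1 month, -1.01 at 3 months and -0.85 at 6 months.

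Single genes of leukocyte recruitment passed. Among 18 chemokines the median log2 fold change was 0.83, with 2 higher (3 without NZB/W-F1 replicate 3) and 1 lower. Over all genes tested, 3.46% were higher and 2.23% were lower. Ccl7, which attracts monocytes, had 1.42, 3.56 and 1.86 CPM in NZB/W-F1 kidneys, against 0.273, 0.126 and 0.305 CPM in C57BL/6 kidneys (limma adjusted p = 0.0014). Cxcl11, an interferon-induced ligand of Cxcr3, averaged 2.49 ± 0.606 CPM in NZB/W-F1 kidneys and 0.698 ± 0.0611 CPM in C57BL/6 kidneys (SD, n = 3 each), but its limma adjusted p of 0.042 did not hold without any 1 of the 6 libraries, reaching 0.174, nor in edgeR, at 0.078. Cxcl14 was lower, at 17.4, 18.5 and 17.8 CPM in NZB/W-F1 kidneys, against 60.0, 70.3 and 68 CPM in C57BL/6 kidneys, and was lower at both earlier ages as well.

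The inflammatory cytokine gene Il1b was the 1 of 21 cytokine and receptor genes called, against 3 without NZB/W-F1 replicate 3, at 8.95, 5.46 and 8.26 CPM in NZB/W-F1 kidneys and 4.44, 1.45 and 2.13 CPM in C57BL/6 kidneys. Its limma adjusted p was 0.025, and reached 0.147 when single libraries were left out, with the call lost without any 1 of replicates 1 and 3 of NZB/W-F1 and 2 and 3 of C57BL/6. Of 13 Toll-like receptor and sensor genes, 3 were called higher (2 without NZB/W-F1 replicate 3) and 0 lower, with a median of 0.26. They were Cd14, Tlr2, which senses bacterial lipoproteins, with a log2 fold change of 0.93 ± 0.22 (SE; limma adjusted p = 0.018), and Tlr13, which senses bacterial ribosomal RNA, with 1.14 ± 0.31 (SE; limma adjusted p = 0.041). Tlr7, the endosomal sensor of single-stranded RNA studied in lupus models, averaged 4.47 ± 1.57 CPM in NZB/W-F1 kidneys and 1.90 ± 0.623 CPM in C57BL/6 kidneys (SD, n = 3 each) and did not pass (limma adjusted p = 0.081). The calls of Tlr2 and Tlr13 were each lost without some single libraries, C57BL/6 replicates 2 and 3 among them for both, with limma adjusted p-values of up to 0.103 and 0.178.

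Lymphocytes other than B cells and the remaining leukocytes gave few calls. Of 10 T cell genes only Trac, the constant region of the T cell receptor alpha chain, was called, at 6.34, 5.71 and 4.06 CPM in NZB/W-F1 kidneys against 2.94, 2.40 and 2.34 CPM in C57BL/6 kidneys (limma adjusted p = 0.025, reaching 0.124 when single libraries were left out, as without any 1 of replicates 1 and 2 of NZB/W-F1 and 2 and 3 of C57BL/6). The T cell list had a median log2 fold change of 0.63, and 6 of its 10 genes had groups that did not overlap with NZB/W-F1 higher, beside 14.3% of all genes. No gene passed among 4 NK and cytotoxic genes, 3 neutrophil genes and 3 mast cell genes, with medians of 0.50, 0.45 and 0.10. The dendritic cell gene Cd209a, a C-type lectin, was lower at 0.563 ± 0.318 CPM in NZB/W-F1 kidneys and 2.55 ± 0.375 CPM in C57BL/6 kidneys (SD, n = 3 each; limma adjusted p = 0.0034), the 1 of 9 dendritic cell genes called.

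Interferon-stimulated genes, which are raised in the blood of many patients with lupus, gave few calls in these kidneys. Of 38 tested, 1 was higher and 1 was lower, beside 3.46% and 2.23% of all genes tested. Their median log2 fold change was 0.29, and 33 of the 38 had a positive value. Mx2, an antiviral GTPase, averaged 4.47 ± 1.26 CPM in NZB/W-F1 kidneys and 1.65 ± 0.808 CPM in C57BL/6 kidneys (SD, n = 3 each). Its limma adjusted p of 0.046 rose to as much as 0.252 when single libraries were left out, with the call kept only without C57BL/6 replicate 3 among these 6 fits. Samd9l, an interferon-induced growth inhibitor, had 86.8, 88.4 and 95.8 CPM in NZB/W-F1 kidneys, against 176, 148 and 161 CPM in C57BL/6 kidneys, and was lower at every age. Of 21 genes induced by interferon gamma, 0 were higher and 1 was lower, with a median of -0.17.

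The Ifi200 and MHC genes differed gene by gene. Ifi202b (chr1:173962568-173982744, minus strand), an Ifi200 family member long studied as a lupus candidate gene in NZB mice, had 6.49, 11.8 and 6.47 CPM in NZB/W-F1 kidneys and no read in the C57BL/6 kidneys. With 324 reads against 0, it was at least 109-fold higher when 3 reads were allowed over the C57BL/6 group. Aim2, a cytosolic DNA sensor beside it on chromosome 1, was the other of 10 Ifi200 genes called, at 2.33 ± 0.599 CPM in NZB/W-F1 kidneys and 0.809 ± 0.130 CPM in C57BL/6 kidneys (SD, n = 3 each; limma adjusted p = 0.034, lost without any 1 C57BL/6 library or either of NZB/W-F1 replicates 1 and 2, at up to 0.139). Pycard, the adaptor of inflammasomes, was lower at 3.21, 3.47 and 2.55 CPM in NZB/W-F1 kidneys, against 7.52, 6.06 and 7.32 CPM in C57BL/6 kidneys, and was lower at both earlier ages.

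Of 17 MHC class I genes, 3 were higher and 4 were lower. H2-Q7, a non-classical class I gene, had 7.60, 6.86 and 5.99 CPM in NZB/W-F1 kidneys, against 33.3, 24.7 and 20.1 CPM in C57BL/6 kidneys. H2-Q1 had 91 reads in the 3 NZB/W-F1 kidneys and 1 read in the 3 C57BL/6 kidneys, a ratio of 91.6 with a 95% counting interval of 16.0 to 3659. H2-T23, which encodes Qa-1, had 59.9 ± 7.96 CPM in NZB/W-F1 kidneys and 105 ± 5.78 CPM in C57BL/6 kidneys (SD, n = 3 each; limma adjusted p = 0.0021), and H2-T24 differed the other way, at 11.7 ± 0.324 CPM in NZB/W-F1 kidneys and 6.19 ± 0.525 CPM in C57BL/6 kidneys (limma adjusted p = 0.0058). H2-T10, H2-T22 and H2-Q6 also passed, but 50% or more of their 31-base words occur elsewhere in the annotated transcripts, so their reads are uncertain. In class II, H2-Ea-ps (chr17:34341959-34344645, minus strand) had 4710 reads against 0 and was at least 1581-fold higher, and H2-DMb1, part of the peptide-loading chaperone, was lower at 7.70 ± 2.84 CPM in NZB/W-F1 kidneys and 16.0 ± 1.32 CPM in C57BL/6 kidneys (SD, n = 3 each; limma adjusted p = 0.018, reaching 0.0751 without single libraries, of which NZB/W-F1 replicate 3 and C57BL/6 replicates 1 and 2 ended the call). H2-Ea-ps was higher at every age.

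Several genes of tubular injury were higher, and in each of them NZB/W-F1 replicate 3 was the hybrid kidney nearest to the C57BL/6 values. Of 30 injury genes, 6 were higher and 0 were lower, with a median log2 fold change of 0.71, and 2 passed without NZB/W-F1 replicate 1, without NZB/W-F1 replicate 2 or without C57BL/6 replicate 2, against 7 without NZB/W-F1 replicate 3. Havcr1 (chr11:46735080-46779578, plus strand), which encodes the kidney injury molecule KIM-1 of proximal tubule cells, had 176, 53.3 and 41.5 CPM in NZB/W-F1 kidneys, against 1.16, 1.58 and 3.25 CPM in C57BL/6 kidneys. It did not set the nephritic age apart: its log2 fold change was 7.01 at 1 month, 4.67 at 3 months and 4.97 at 6 months, each passing the limma test. Lcn2, the iron-siderophore binding protein NGAL released by stressed tubules and neutrophils, had 42.5, 31.1 and 9.71 CPM in NZB/W-F1 kidneys, against 3.55, 2.40 and 5.89 CPM in C57BL/6 kidneys (log2 fold change 2.51 ± 0.57 SE; limma adjusted p = 0.013). Leaving out C57BL/6 replicate 2 or either of NZB/W-F1 replicates 1 and 2 ended the Lcn2 call, at a limma adjusted p of up to 0.0831. Tnfrsf12a, the receptor of the cytokine TWEAK, had 36.3, 53.3 and 23.3 CPM in NZB/W-F1 kidneys, against 12, 12.4 and 10.7 CPM in C57BL/6 kidneys, and did not overlap.

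Spp1, which encodes osteopontin and is made by tubule cells and macrophages, had 5399, 3958 and 1357 CPM in NZB/W-F1 kidneys, against 1439, 1178 and 1278 CPM in C57BL/6 kidneys. Replicate 3 lay inside the C57BL/6 range although the gene passed the test (limma adjusted p = 0.042), a call kept only without NZB/W-F1 replicate 3 among the 6 fits that leave out 1 library and otherwise at up to 0.215. Vcam1, an adhesion molecule of activated endothelium and injured tubules, had 50.6, 29.0 and 23.8 CPM in NZB/W-F1 kidneys, against 16.5, 15.6 and 15.2 CPM in C57BL/6 kidneys. Cst3, the secreted protease inhibitor cystatin C, averaged 549.6 ± 111 CPM in NZB/W-F1 kidneys and 309.5 ± 33.7 CPM in C57BL/6 kidneys (SD, n = 3 each). The limma adjusted p-values of Vcam1 and Cst3 were 0.032 and 0.023, and leaving out single libraries, replicates 1 and 2 of either strain in both cases, brought them to as much as 0.174 and 0.123.

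Proliferation genes had fold changes in 1 direction. All 28 cell cycle genes tested had a positive log2 fold change, with a median of 0.89, although only 6 passed and 7 had groups that did not overlap, beside 14.3% of all genes. Mki67, a nuclear protein of dividing cells, had 24.7, 34.2 and 6.75 CPM in NZB/W-F1 kidneys, against 5.67, 2.84 and 5.49 CPM in C57BL/6 kidneys (log2 fold change 1.89 ± 0.45 SE; limma adjusted p = 0.017). Ube2c, the ubiquitin-conjugating enzyme of the anaphase-promoting complex, had 11.7, 12.9 and 5.10 CPM in NZB/W-F1 kidneys, against 3.96, 3.28 and 4.27 CPM in C57BL/6 kidneys. Cdc20, which activates that complex, had 7.23, 11.3 and 2.55 CPM in NZB/W-F1 kidneys, against 1.78, 1.26 and 2.74 CPM in C57BL/6 kidneys, so that NZB/W-F1 replicate 3 lay among the C57BL/6 values. Ccnb2, a mitotic cyclin, had 6.56, 6.95 and 1.72 CPM in NZB/W-F1 kidneys, against 1.02, 0.821 and 2.34 CPM in C57BL/6 kidneys. Birc5, which encodes the mitotic protein survivin, and Rrm2, a ribonucleotide reductase subunit needed for DNA synthesis, completed the 6, with log2 fold changes of 1.5 ± 0.41 and 1.12 ± 0.28 (SE; limma adjusted p = 0.039 and 0.024). All 6 calls were lost without NZB/W-F1 replicate 1, without NZB/W-F1 replicate 2 or without C57BL/6 replicate 2, with limma adjusted p-values of up to 0.211 for Birc5.

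The cell cycle result depended on which library was left out. The summed level of the 28 genes was 257, 330 and 133 CPM in NZB/W-F1 kidneys and 142, 119 and 146 CPM in C57BL/6 kidneys. Without NZB/W-F1 replicate 3, 20 of the 28 passed limma. None passed without NZB/W-F1 replicate 1, without NZB/W-F1 replicate 2, without C57BL/6 replicate 2, or with only the 6 compared libraries in the fit (0 genes in each), and 2 passed without C57BL/6 replicate 1. The macrophage and injury lists ordered the hybrid kidneys the same way for replicate 3, with summed levels of 6021, 4916 and 1920 CPM and of 9158, 7537 and 3964 CPM in NZB/W-F1 replicates 1, 2 and 3, against ranges of 1542 to 1901 CPM and of 3930 to 4198 CPM in C57BL/6 kidneys. Spp1 is counted in both lists and makes up most of the macrophage sums. Without it the macrophage genes summed to 622, 958 and 563 CPM in NZB/W-F1 kidneys and 333 to 462 CPM in C57BL/6 kidneys, and the injury genes to 3759, 3579 and 2606 CPM in NZB/W-F1 kidneys and 2652 to 2943 CPM in C57BL/6 kidneys.

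The promoters of these 6 genes are shown because many genes of mitosis share a pair of short promoter elements, the cell cycle genes homology region (TTTGAA) and the CCAAT box (CCAAT). The lines give the 150 bases before the RefSeq start in GRCm38.p6, written 5′ to 3′ on the strand of the gene, with matches to either motif on either strand in capitals, from chr7:135716380-135716529 for Mki67, chr9:70421555-70421704 for Ccnb2, chr4:118437344-118437493 for Cdc20, chr2:164769779-164769928 for Ube2c, chr12:24708104-24708253 for Rrm2 and chr11:117849087-117849236 for Birc5.
Mki67: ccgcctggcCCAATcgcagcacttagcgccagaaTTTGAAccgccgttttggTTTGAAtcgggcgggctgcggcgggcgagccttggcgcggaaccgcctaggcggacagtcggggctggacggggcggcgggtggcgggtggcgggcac
Ccnb2: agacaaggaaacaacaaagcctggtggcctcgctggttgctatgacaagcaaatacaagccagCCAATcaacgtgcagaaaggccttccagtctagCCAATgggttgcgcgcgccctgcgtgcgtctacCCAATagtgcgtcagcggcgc
Cdc20: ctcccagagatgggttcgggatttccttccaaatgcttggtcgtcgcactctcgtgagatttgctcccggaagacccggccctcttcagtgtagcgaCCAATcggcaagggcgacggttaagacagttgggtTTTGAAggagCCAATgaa
Ube2c: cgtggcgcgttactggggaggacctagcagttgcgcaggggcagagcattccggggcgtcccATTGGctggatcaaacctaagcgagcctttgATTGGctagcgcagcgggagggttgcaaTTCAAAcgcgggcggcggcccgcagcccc
Rrm2: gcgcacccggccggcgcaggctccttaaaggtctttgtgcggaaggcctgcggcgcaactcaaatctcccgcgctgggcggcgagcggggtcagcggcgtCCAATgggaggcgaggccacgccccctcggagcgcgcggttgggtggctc
Birc5: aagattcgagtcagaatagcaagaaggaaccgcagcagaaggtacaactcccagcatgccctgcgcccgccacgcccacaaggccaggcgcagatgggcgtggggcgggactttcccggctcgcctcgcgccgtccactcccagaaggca
In the full 250 bases before the start, TTTGAA was found on either strand in 4 of the 6 promoters (66.7%), in 9 of the 23 tested cell cycle genes with a RefSeq window (39.1%) and in 16% of all 32851 windows. CCAAT was found in 5 of the 6 (83.3%), in 21 of 23 (91.3%) and in 33.8% of all windows. Both occurred in 4 of the 6 (66.7%), in 9 of 23 (39.1%) and in 5.55% of all windows. The cell cycle counts are of genes with a match in any of their windows. The counts over all windows are of single windows, so these shares are not a like measure. The 2 motifs share no bases, and Birc5 held neither in this window.

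**Figure D3:**
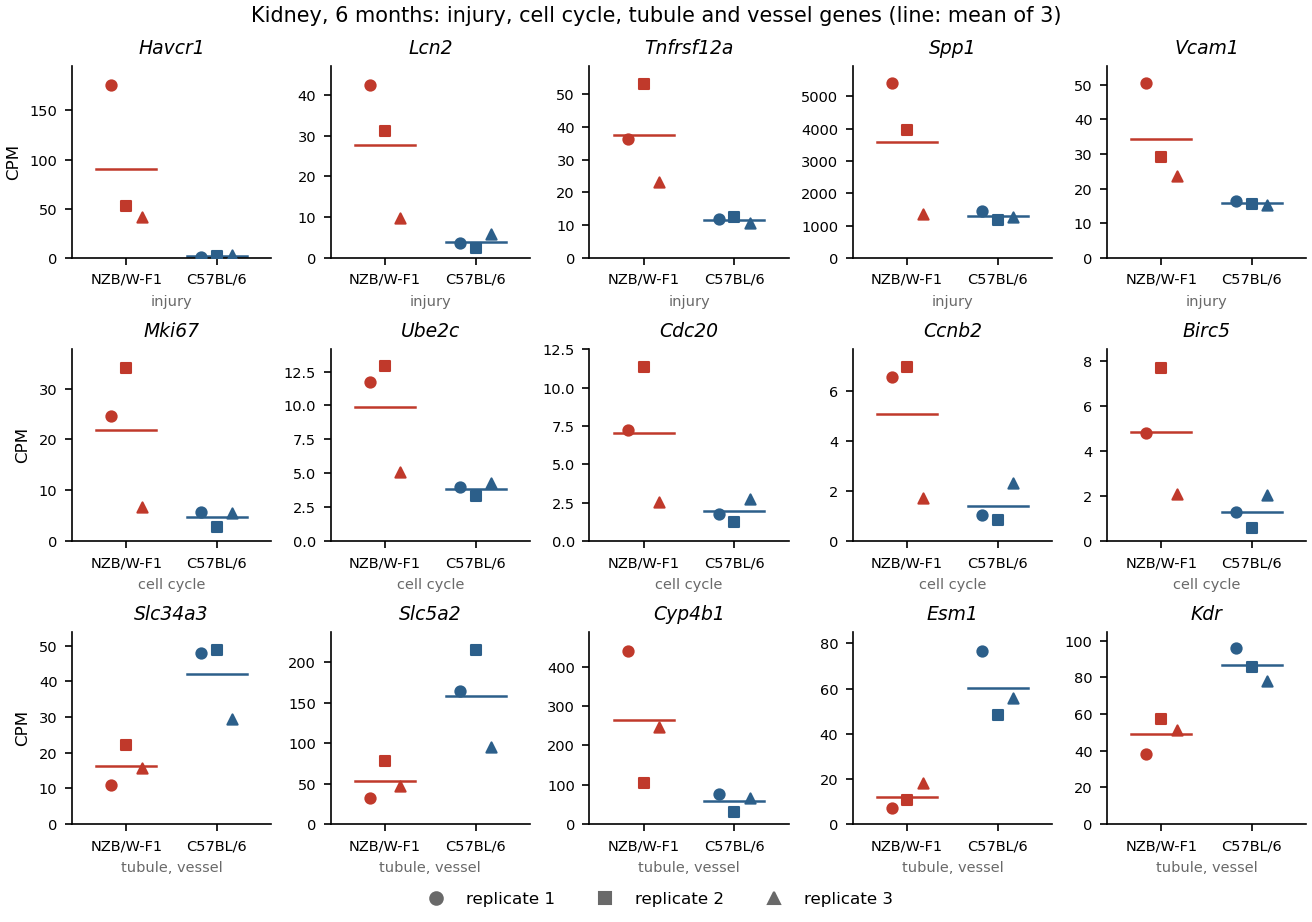
Level of 15 injury, cell cycle, tubule and vessel genes in kidney at 6 months, in CPM on linear axes that start at 0, with NZB/W-F1 libraries in red at the left and C57BL/6 libraries in blue at the right of each panel. Each symbol is 1 library, its shape the replicate number, and the line the mean of 3; NZB/W-F1 replicate 3, the red triangle, is the lowest red point in all 10 injury and cell cycle panels and lies inside the C57BL/6 range for Spp1, Cdc20 and Ccnb2.

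The resident cells of the nephron differed in single genes. Of 29 proximal tubule genes, 1 was higher and 2 were lower, with a median log2 fold change of -0.34 and summed levels of 31626 to 34648 CPM in NZB/W-F1 kidneys and 30881 to 38775 CPM in C57BL/6 kidneys. Slc5a2, the SGLT2 glucose transporter, had 32.6, 78.0 and 47.5 CPM in NZB/W-F1 kidneys, against 164, 215 and 95.6 CPM in C57BL/6 kidneys (log2 fold change -1.59 ± 0.41 SE; limma adjusted p = 0.032). Slc34a3, a phosphate transporter, had 10.8, 22.2 and 15.8 CPM in NZB/W-F1 kidneys, against 48.1, 48.9 and 29.6 CPM in C57BL/6 kidneys (limma adjusted p = 0.025). The groups did not overlap for either, and both calls were lost without any 1 of replicates 1 and 3 of NZB/W-F1 and 1 and 2 of C57BL/6, at limma adjusted p-values of up to 0.166 and 0.138. Cyp4b1, a fatty acid and xenobiotic hydroxylase, was higher at 441, 104 and 247 CPM in NZB/W-F1 kidneys, against 77.1, 30.4 and 66.4 CPM in C57BL/6 kidneys (limma adjusted p = 0.011, and up to 0.078 without C57BL/6 replicate 2 or NZB/W-F1 replicate 1, either of which ended the call). No gene passed among 16 of the ascending limb, with a median of 0.13, or among 22 of the distal tubule and collecting duct, with a median of -0.11. Calb1, the calcium-binding protein of the distal tubule, came nearest, at 64.9, 219 and 263 CPM in NZB/W-F1 kidneys against 524, 411 and 411 CPM in C57BL/6 kidneys (limma adjusted p = 0.054). It passed without NZB/W-F1 replicate 3 and with the replicate block (limma adjusted p = 0.022 and 0.027), and was then the 1 gene of its list called.

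Among endothelial genes of the whole kidney, Esm1 and Kdr were lower. Esm1 (chr13:113209659-113218098, plus strand), a proteoglycan that endothelial cells secrete under VEGF signalling, had 7.23, 10.8 and 18 CPM in NZB/W-F1 kidneys, against 76.8, 48.4 and 55.7 CPM in C57BL/6 kidneys. Its log2 fold change was -2.34 ± 0.25 (SE; limma adjusted p = 9.2e-06), and it was called under every alternative tried. Kdr, the main VEGF receptor of endothelium, had 38.5, 57.6 and 51.4 CPM in NZB/W-F1 kidneys, against 96.1, 85.8 and 78.0 CPM in C57BL/6 kidneys (log2 fold change -0.83 ± 0.17 SE; limma adjusted p = 0.0065). Neither passed at 1 or at 3 months. With Vcam1 higher, 1 of 17 endothelial genes was higher and 2 were lower, at a median of -0.16 and summed levels of 1113 to 1364 CPM in NZB/W-F1 kidneys and 1392 to 1449.5 CPM in C57BL/6 kidneys.

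Podocyte genes gave 1 call. Of 16 tested, 1 was higher (2 without NZB/W-F1 replicate 3, with the replicate block or with only the 6 compared libraries in the fit) and 0 were lower, with a median log2 fold change of 0.13. Ptpro, a phosphatase of the podocyte surface, had 35.3, 26.3 and 19.3 CPM in NZB/W-F1 kidneys, against 15.2, 14.9 and 12.2 CPM in C57BL/6 kidneys (limma adjusted p = 0.021, and up to 0.122 when any 1 of replicates 1 and 2 of NZB/W-F1 and 2 and 3 of C57BL/6 was left out, each of which ended the call). No gene passed among 15 of mesangium, pericytes and renin cells or among 29 of the extracellular matrix, with medians of -0.05 and -0.20. The same held for 14 p53 and senescence genes (median 0.05), 24 stress chaperones (0.37), 16 immediate early genes (0.66) and 19 clock genes (-0.13). Without NZB/W-F1 replicate 3, 2 matrix genes and 2 stress chaperones passed, all higher.

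Some metabolic enzymes were called, beside 5.69% of all genes tested in either direction. Acot2, a mitochondrial acyl-CoA thioesterase, had 48.0, 32.3 and 42.1 CPM in NZB/W-F1 kidneys, against 28.7, 21.5 and 19.1 CPM in C57BL/6 kidneys (limma adjusted p = 0.0058). Cyp4a12a was also higher, but its words are largely shared with its neighbour Cyp4a12b and its reads are therefore uncertain. Of 29 fatty acid oxidation genes, 3 were higher and 0 were lower, and their median log2 fold change was 0.03. Of 21 cholesterol synthesis genes none passed, but 20 had a negative log2 fold change, with a median of -0.34. Oxidative phosphorylation had 0 of 32 genes higher, 1 lower and a median of 0.02, and the lower one was Ndufs5, whose reads are uncertain because of a near-identical copy described further on. Glycolysis and gluconeogenesis had 1 of 22 higher and 3 lower (2 without NZB/W-F1 replicate 3), among them Pcx, the pyruvate carboxylase, at 245 ± 36.4 CPM in NZB/W-F1 kidneys and 413 ± 66.5 CPM in C57BL/6 kidneys (SD, n = 3 each; limma adjusted p = 0.03, up to 0.136 without single libraries, with replicates 1 and 2 of NZB/W-F1 and 1 and 2 of C57BL/6 each ending the call). Of the 22, 2 have uncertain reads for the same reason as Cyp4a12a. Eno1 was lower, averaging 234 CPM in NZB/W-F1 kidneys and 345 CPM in C57BL/6 kidneys. Its copy Eno1b was higher, averaging 56.2 CPM in NZB/W-F1 kidneys and 0.562 CPM in C57BL/6 kidneys. Together they averaged 290 CPM in NZB/W-F1 kidneys and 346 CPM in C57BL/6 kidneys.

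Enzymes that handle drugs and steroids differed in both directions. Of 42 genes of drug oxidation and conjugation, 4 were higher and 5 were lower. The glutathione transferase genes Gsta1, which was higher, and Gsta2, which was lower, have 92.86% and 60.72% of their words elsewhere in the annotated transcripts. The reads of Gsta1 and Gsta2 are therefore uncertain. Cyp2c23, an arachidonic acid epoxygenase of the kidney, had 10.1, 7.44 and 5.58 CPM in NZB/W-F1 kidneys, against 44.1, 45.9 and 40.7 CPM in C57BL/6 kidneys (log2 fold change -2.46 ± 0.17 SE; limma adjusted p = 3.2e-08). Cyp2d12 had 2.76, 13.6 and 7.57 CPM in NZB/W-F1 kidneys, against 51.8, 119 and 96.0 CPM in C57BL/6 kidneys (limma adjusted p = 1.0e-04). Both were lower at all 3 ages. Ugt1a7c, a glucuronosyltransferase that shares its last exons with other Ugt1a genes, had 3.28 ± 0.335 CPM in NZB/W-F1 kidneys and 45.7 ± 12.5 CPM in C57BL/6 kidneys, while Ugt1a10 of the same locus had 6.20 ± 3.28 CPM in NZB/W-F1 kidneys and 0.857 ± 0.579 CPM in C57BL/6 kidneys (SD, n = 3 each; limma adjusted p = 3.7e-04 and 0.0075, the second becoming 0.053 without NZB/W-F1 replicate 1). Reads of the shared exons are uncertain.

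Of 26 steroid enzymes and aldo-keto reductases, 2 were higher and 5 were lower. Akr1c21, a ketosteroid reductase and the extreme of its cluster on chromosome 13 (chr13:4574075-4586541, plus strand), had 4.55, 4.13 and 2.75 CPM in NZB/W-F1 kidneys, against 645, 587 and 564 CPM in C57BL/6 kidneys. In the same cluster, Akr1c19 had 11.3, 10.8 and 12.5 CPM in NZB/W-F1 kidneys, against 39.2, 36.8 and 30.3 CPM in C57BL/6 kidneys. Akr1c14 and Akr1c18 did not follow: Akr1c14 had 157, 75.5 and 190 CPM in NZB/W-F1 kidneys, against 60.6, 135 and 91.9 CPM in C57BL/6 kidneys, and Akr1c18 overlapped as well (limma adjusted p = 0.47 and 0.59). Hsd3b2, which makes progesterone and other ketosteroids, had 176, 219.6 and 215 CPM in NZB/W-F1 kidneys, against 36.6, 41.4 and 30 CPM in C57BL/6 kidneys, and its neighbour Hsd3b3 differed the other way, at 11, 3.72 and 5.78 CPM in NZB/W-F1 kidneys against 30.1, 23.2 and 25.5 CPM in C57BL/6 kidneys. Hsd17b14, an estradiol dehydrogenase, had 6.71, 6.04 and 5.30 CPM in NZB/W-F1 kidneys, against 30.3, 30.4 and 34.1 CPM in C57BL/6 kidneys (log2 fold change -2.31 ± 0.13 SE; limma adjusted p = 4.4e-09).

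Transporters and antioxidant enzymes differed in single genes, beside 5.69% of all genes tested that were called in either direction. Abcb1b, a drug efflux pump, had 135, 48.1 and 91.8 CPM in NZB/W-F1 kidneys, against 13.7, 14.3 and 16.5 CPM in C57BL/6 kidneys; it passed at a limma adjusted p of 0.022 but reached 0.112 when single libraries were left out, with the call kept only without NZB/W-F1 replicate 2. It and the lower Slc22a29 were the 2 called of 30 organic ion carriers, whose median was -0.33. Sod1, the cytosolic superoxide dismutase, was the antioxidant gene that was higher, at 746, 734 and 625 CPM in NZB/W-F1 kidneys and 439, 470.2 and 443 CPM in C57BL/6 kidneys (limma adjusted p = 0.013, and up to 0.0637 without C57BL/6 replicate 1 or 3 or NZB/W-F1 replicate 1, each of which ended the call). Gclc, which makes the precursor of glutathione, and Prdx1, a peroxide reductase, were lower among the 19 antioxidant genes, with log2 fold changes of -0.86 ± 0.21 and -0.64 ± 0.16 (SE; limma adjusted p = 0.02 and 0.023, each lost without some single libraries, NZB/W-F1 replicate 3 among them, at up to 0.129 and 0.0989).

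Many of the largest differences were present at every age. Of the 818 genes, 382 differed in the same direction at 1, 3 and 6 months, 2.66% of all genes tested, and 260 differed in their 6-month direction at neither earlier age. Without NZB/W-F1 replicate 3 of 6 months, 335 genes differed in the same direction at all 3 ages. The 3 comparisons use separate mice of both strains. At 1 month 23% of the genes tested were called and at 3 months 15.1%. Angptl7 (chr4:148495183-148500460, minus strand, within the span of Mtor), a secreted angiopoietin-like protein, had 153, 224 and 193 CPM in NZB/W-F1 kidneys, against 1.23, 1.58 and 0.406 CPM in C57BL/6 kidneys. Gas6, a ligand of the TAM receptors through which macrophages clear dead cells, had 82.9, 80.2 and 69.3 CPM in NZB/W-F1 kidneys, against 469.6, 508 and 430.4 CPM in C57BL/6 kidneys. Its log2 fold change was -1.71 at 1 month, -1.74 at 3 months and -2.59 ± 0.22 (SE) at 6 months. Inmt, an indolethylamine methyltransferase, had 14.9, 5.87 and 18.6 CPM in NZB/W-F1 kidneys, against 123, 95.3 and 121 CPM in C57BL/6 kidneys. Serpina6, which encodes corticosteroid-binding globulin, was at 0.52 at 1 month, without passing, at 5.26 at 3 months and at 4.36 ± 0.43 (SE) at 6 months on the log2 scale.

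Within 2 lists of clustered genes, the called members did not all differ in 1 direction. On chromosome 7, Trim12a (chr7:104299894-104315466, minus strand) had 1 read in the 3 NZB/W-F1 kidneys and 467 in the 3 C57BL/6 kidneys, a 464-fold ratio of C57BL/6 over NZB/W-F1 with a 95% counting interval of 82.8 to 18355. Further along the cluster Trim30d was lower, at 0.522, 1.65 and 0.689 CPM in NZB/W-F1 kidneys against 5.94, 2.97 and 3.45 CPM in C57BL/6 kidneys, while Trim12c had 15.4, 15.4 and 17.6 CPM in NZB/W-F1 kidneys against 12.2, 6.57 and 9.65 CPM in C57BL/6 kidneys and did not pass (limma adjusted p = 0.12). Of 10 Trim genes tested there, 1 was higher and 4 were lower. The higher one, Trim34b, has 69.05% of its words elsewhere in the annotated transcripts, and the lower Trim5 has 52.61%. The reads of both are therefore uncertain, and apart from Trim34b the called Trim genes were all lower. Clec2h, a C-type lectin of the natural killer gene complex on chromosome 6, had 1.71, 8.02 and 7.92 CPM in NZB/W-F1 kidneys, against 102, 61.2 and 52.4 CPM in C57BL/6 kidneys. In the same list of 8 genes, Clec12a, a myeloid inhibitory receptor, was higher at 7.83 ± 0.996 CPM in NZB/W-F1 kidneys and 3.11 ± 0.190 CPM in C57BL/6 kidneys (SD, n = 3 each; limma adjusted p = 0.007).

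Processed pseudogenes, intronless copies of other genes, were called more often than coding genes, but many of them entered the test through NZB/W-F1 libraries alone. Of 175 tested, 86 were higher in NZB/W-F1 kidneys and 5 were lower, together 52%, against 4.44% of 13342 protein-coding genes. Of the 86, 84 were higher at all 3 ages, and 62 had no C57BL/6 library at 1 CPM. Those 62 passed the filter of 1 CPM in at least 3 libraries only through the group in which they were high. Of the 175 tested, 63 had no C57BL/6 library at 1 CPM, against 66 of the 13342 protein-coding genes. The shares of 52% and 4.44% therefore do not compare like sets. Of the 91 called, 68 share 50% or more of their 31-base words with other annotated transcripts, so that the reads of gene and copy cannot be told apart with certainty. The reads were aligned to mm10, a build of the C57BL/6 genome, and the part of that choice in these calls was not tested.

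Ndufs5 and Rpl26 show how such pairs behaved. Ndufs5, a subunit of respiratory complex I, had 1.79, 2.56 and 2.13 CPM in NZB/W-F1 kidneys, against 27.7, 26.0 and 26.5 CPM in C57BL/6 kidneys. Its copy BC002163 had 30.6, 34 and 31.1 CPM in NZB/W-F1 kidneys, against 1.57, 1.14 and 1.52 CPM in C57BL/6 kidneys. Gene and copy added up to 34.1 ± 2.19 CPM in NZB/W-F1 kidneys and 28.1 ± 1.05 CPM in C57BL/6 kidneys (SD, n = 3 each). Rpl26, a protein of the large ribosomal subunit, had 39.9, 36.1 and 32.2 CPM in NZB/W-F1 kidneys, against 195, 168 and 205 CPM in C57BL/6 kidneys. Its copy Gm15772 had 159, 186 and 137 CPM in NZB/W-F1 kidneys, against 0.205, 0.632 and 0.914 CPM in C57BL/6 kidneys, and the sums were 197 ± 26.4 CPM in NZB/W-F1 kidneys and 189.7 ± 19.4 CPM in C57BL/6 kidneys (SD, n = 3 each). Each member alone differed many-fold, and the sums were within 1.21-fold and 1.04-fold.

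The sequences show how little separates each gene from its copy. Ndufs5 and BC002163 match at 316 of 318 coding bases (99.4%) and Rpl26 and Gm15772 at 433 of 435 (99.5%), and each line below holds the 120-base stretch with both mismatches of its pair, in capitals, from the coding sequence in GRCm38. Ndufs5 lies at chr4:123712710-123718202 on the minus strand, BC002163 at chr16:42955631-42955949 on the plus strand inside Zbtb20, Rpl26 at chr11:68901583-68906989 on the plus strand and Gm15772 at chr5:3236431-3236868 on the plus strand.
Ndufs5: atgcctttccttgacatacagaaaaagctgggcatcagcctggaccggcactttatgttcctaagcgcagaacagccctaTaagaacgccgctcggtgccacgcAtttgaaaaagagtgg
BC002163: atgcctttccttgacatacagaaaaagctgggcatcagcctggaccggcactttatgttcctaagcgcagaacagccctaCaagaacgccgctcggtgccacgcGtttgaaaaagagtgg
Rpl26: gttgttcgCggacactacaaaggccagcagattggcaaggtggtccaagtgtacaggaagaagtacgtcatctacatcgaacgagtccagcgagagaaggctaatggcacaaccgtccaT
Gm15772: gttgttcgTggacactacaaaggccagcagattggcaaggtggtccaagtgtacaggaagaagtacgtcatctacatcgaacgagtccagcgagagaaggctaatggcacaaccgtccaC
Not every pair behaved this way. Rpl29 averaged 26.4 ± 0.981 CPM in NZB/W-F1 kidneys and 83.6 ± 3.98 CPM in C57BL/6 kidneys, and adding its copy Gm8210, at 12 CPM in NZB/W-F1 kidneys and 0 CPM in C57BL/6 kidneys, left the sum at 38.5 ± 3.24 CPM in NZB/W-F1 kidneys and 83.6 ± 3.98 CPM in C57BL/6 kidneys. Atp6v0c, a subunit of the proton pump of lysosomes, and its copy Atp6v0c-ps2 summed to 58.8 ± 2.71 CPM in NZB/W-F1 kidneys and 17 ± 2.29 CPM in C57BL/6 kidneys (SD, n = 3 each), because the copy had 51.7 CPM in NZB/W-F1 kidneys and 1.6 CPM in C57BL/6 kidneys. Of 57 higher copies with 50% or more of their words in 1 tested coding gene, belonging to 51 coding genes, 10 of those coding genes were lower, 1 was higher and 40 were not called.

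**Figure D4:**
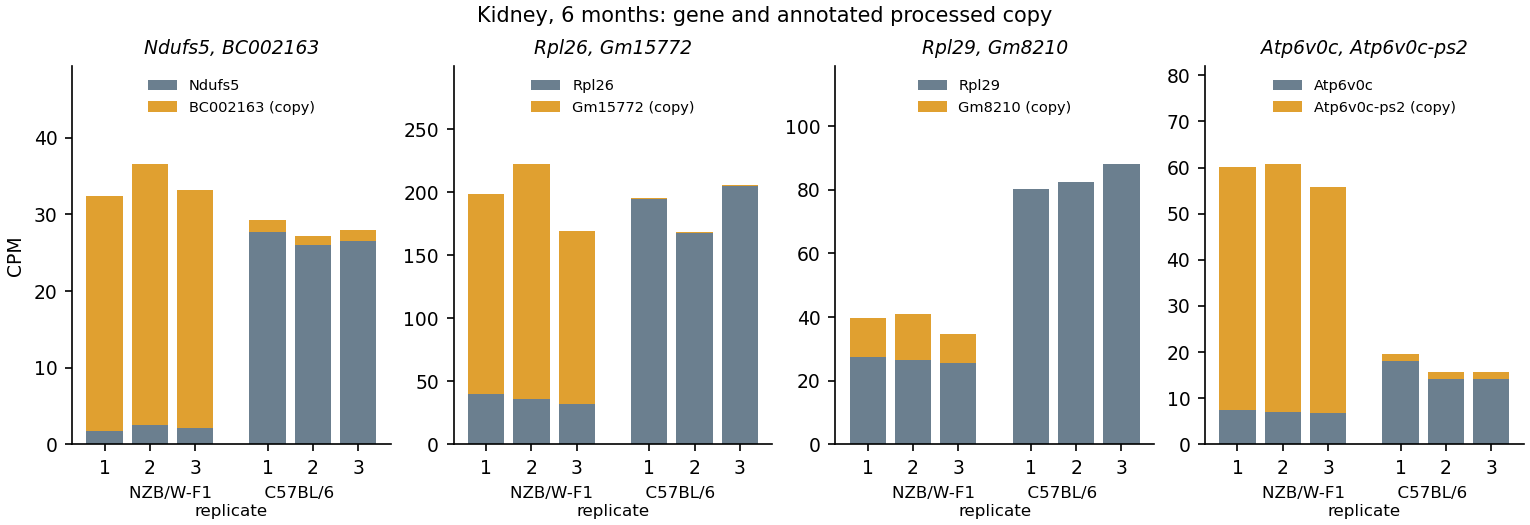
Level of 4 coding genes (grey) and of an annotated processed copy of each (orange), stacked, in CPM on a linear axis, in the 3 NZB/W-F1 libraries at the left and the 3 C57BL/6 libraries at the right of each panel. The stacks of Ndufs5 with BC002163 and of Rpl26 with Gm15772 are of like height in both strains, whereas the sum is lower in NZB/W-F1 for Rpl29 with Gm8210 and higher for Atp6v0c with Atp6v0c-ps2.

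Antibody and leukocyte genes were among those whose strain difference at 6 months departed from that at the younger ages. The strain difference at 6 months minus the mean of those at 1 and 3 months passed the limma test for 376 genes, 2.62% of those tested, 205 of them upward (1.43%) and 171 downward (1.19%). Without NZB/W-F1 replicate 3, 171 genes passed in all. Of the 205, 58 were called higher at 6 months itself and 111 had been called lower at 1 month, beside 11.1% of all genes. For Ighg3 the log2 fold change was -0.25 at 1 month, 1.15 at 3 months and 4.97 at 6 months, a change of 4.53 ± 0.54 (SE; limma adjusted p = 9.5e-04). Ighg2c stood at -0.05, 0.28 and 4.49 at these ages, a change of 4.37 ± 0.80 (SE; limma adjusted p = 0.016), which edgeR did not call (adjusted p = 0.166). Of the 9 immunoglobulin constant-region genes, 6 passed this test upward and 0 downward. Itgam changed by 2.56 ± 0.46, Clec4a1, a myeloid lectin receptor, by 2.27 ± 0.43 and Cd53, a leukocyte tetraspanin, by 1.95 ± 0.36 (SE; limma adjusted p = 0.015, 0.017 and 0.017), and Cd53 was lower in the hybrids at 1 month. Of the downward genes, Esm1 changed by -1.86 ± 0.31 and Kdr by -1.03 ± 0.21 (SE; limma adjusted p = 0.0096 and 0.022).

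Of the 171 downward genes, 136 had been called higher in the hybrids at 1 month, beside 11.9% of all genes, and 24 were called lower at 6 months. Prok1, an angiogenic peptide, had a log2 fold change of 3.55 at 1 month, 1.17 at 3 months and -1.43 at 6 months, and its 6-month values were 4.40, 3.56 and 2.96 CPM in NZB/W-F1 kidneys, against 9.50, 13.6 and 8.94 CPM in C57BL/6 kidneys. Slc10a2, the bile acid transporter, had 4.07 at 1 month, -0.35 at 3 months and -0.77 at 6 months, the last from 82.4, 61.5 and 79.7 CPM in NZB/W-F1 kidneys and 112, 141 and 127 CPM in C57BL/6 kidneys, which did not overlap and did not pass (limma adjusted p = 0.086). Slc22a26, an organic anion carrier, and Rnf24, a ring-finger protein, likewise stood at 4.88 and 4.62 at 1 month and both at -1.34 at 6 months. The test of age was sensitive to which earlier age was used: against 1 month alone 529 genes passed (3.68%), and against 3 months alone 0 genes passed in limma or in edgeR, although 3719 had an unadjusted limma p under 0.05. Leaving out single 6-month libraries gave 30 to 315 calls, with 30 without C57BL/6 replicate 2, and Itgam, Clec4a1, Cd53 and Kdr were among those lost then, while Ighg3, Ms4a1, Mzb1, Pou2af1, Esm1, Prok1 and Slc10a2 were called under every alternative tried.

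**Figure D5:**
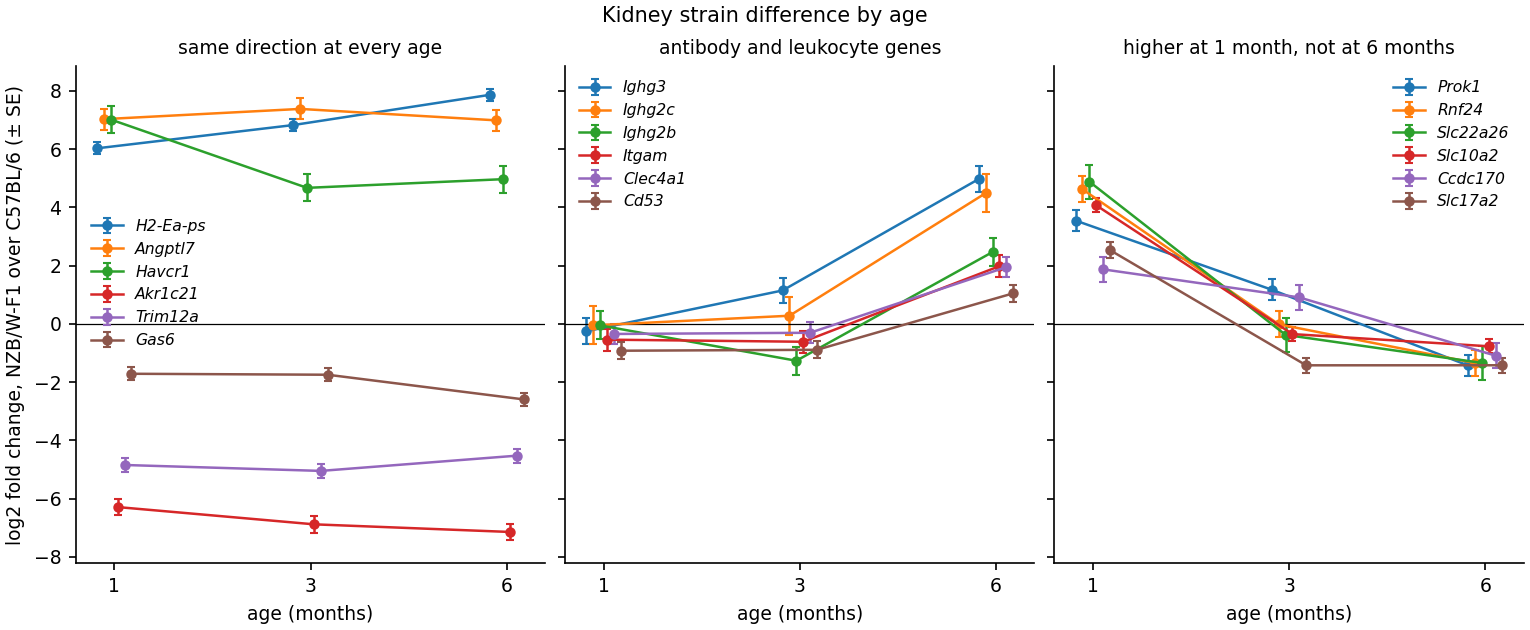
Log2 fold change of NZB/W-F1 over C57BL/6 kidneys at 1, 3 and 6 months on a common y axis, each point a fitted value with its standard error from 3 libraries of each strain, joined by gene. The left panel holds 6 genes that differ in the same direction at every age, the middle panel antibody and leukocyte genes, with Ighg3 at 4.97 at 6 months and -0.25 at 1 month, and the right panel genes such as Slc10a2 that were higher at 1 month and had negative values at 6 months.

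A share of the kidney differences was found in the other organs of the series. In spleen at 6 months 796 of 15097 genes were called (5.27%), and of the 650 kidney genes that could be tested there 220 differed in the same direction and 3 in the opposite one. In brain 647 of 14895 were called (4.34%), and of 555 that could be tested 192 were the same way round and 10 were opposite. Without NZB/W-F1 replicate 3 of the organ, 625 genes were called in spleen and 449 in brain. Both organs shared 126, of which 120 also differed the same way at all 3 ages in kidney. Among them were Trim12a, with log2 fold changes of -7.06 in spleen and -2.68 in brain, and the pairs Ndufs5 with BC002163 and Rpl26 with Gm15772. Antibody genes were also higher in spleen, with log2 fold changes of 5.17 for Ighg3, 3.55 for Ighg2c, 2.11 for Ighm and 1.74 for Mzb1, each passing. Cd22, Ms4a1, Itgam and Mki67, called in kidney, had spleen values of 0.20, -0.06, -0.08 and 0.04 and did not pass there. The spleen and brain libraries of 6 months carry the same codes as the kidneys, so the organs are not independent samples of the strains. The tables were normalised and fitted separately, and no test was made between organs.

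Markers of tissues that can be taken along with a kidney were measured beside these results. None of 17 adipocyte genes passed, although 9 did, all lower in NZB/W-F1, with only the 6 compared libraries in the fit. Their median log2 fold change was -0.86 and 10 had groups that did not overlap, all lower in NZB/W-F1, beside 13.6% of all genes. Retn, an adipocyte hormone, had 3.88, 17.9 and 12.3 CPM in NZB/W-F1 kidneys, against 85.1, 28.4 and 60.5 CPM in C57BL/6 kidneys, and Cfd, a complement factor made by fat, had 44.6, 69.1 and 179 CPM in NZB/W-F1 kidneys, against 757, 320.4 and 738 CPM in C57BL/6 kidneys. The part of attached fat in the lipid genes above was not tested. Of 10 urothelial genes only Krt14, a basal keratin, passed, at 5.59, 6.37 and 6.06 CPM in NZB/W-F1 kidneys against 1.84, 2.46 and 1.83 CPM in C57BL/6 kidneys, and the list's sum was 190 to 254 CPM in NZB/W-F1 kidneys and 84.6 to 205 CPM in C57BL/6 kidneys. The 5 genes of lymph node and follicle summed to 23.8, 17.4 and 27.5 CPM in NZB/W-F1 kidneys and 24.5, 17.1 and 26.7 CPM in C57BL/6 kidneys, the same range although Ltb, a lymphotoxin subunit, was higher (limma adjusted p = 0.029, and up to 0.162 without single libraries, NZB/W-F1 replicates 1 and 2 and C57BL/6 replicates 2 and 3 each ending the call). Of 8 red cell genes 0 were higher and 1 was lower (0 without NZB/W-F1 replicate 3), of 6 adrenal cortex genes none passed, and neither did the 1 pancreatic and 3 muscle genes that could be tested. Their part in the immune results was not tested.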

How the data were processed

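The RNA was extracted with TRIzol and made into libraries with the TruSeq RNA Sample Prep Kit v2, per the labels' protocols, whose strand setting is not given in the sources used here. Per the submitters' processing notes, the tools were STAR 2.6, HTSeq and edgeR on the build mm10. The authors deposited CPM values, a signal scaled per library; dividing by the step of 1 read gave whole reads for 100% of values (tolerance 0.01), so each library had been scaled by 1 factor and counts were recovered. The 3 rows of reads outside genes, 22.7 to 27.0% of reads in the 6 libraries, were left out, and 14448 of 14453 genes matched the GENCODE annotation of GRCm38.

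The main test was limma 3.58.1 (R 4.3.3) on log2(CPM + 0.5), which understates changes of low genes, for genes at 1 CPM in at least 3 libraries, with group means over all 18 kidney libraries and Benjamini-Hochberg adjustment. edgeR 4.0.16 on recovered counts, median-of-ratios scaling (DESeq2 1.42.0), other pseudocounts and filters, a replicate block, and leaving out each library were alternatives; the code was tested on simulated data. Because the deposited unit was a scaled CPM, the count test was an alternative. Counting intervals and floors of 3 reads cover counting error only. Reads of genes with 50% or more of their 31-base words elsewhere were treated as uncertain. Named were the 15 largest changes each way with a mean of 5 CPM or more and no overlap, the 8 largest each way for the age difference, and up to 5 per list; predicted genes and V segments were passed over, and Rpl26, Gm15772, Ccnb2, Spp1, Ighg1, H2-T23, H2-T24, Hsd3b3, Ugt1a10, family neighbours and copy pairs were named after their values were seen. A few genes that the rule chose are not reported here. The gene lists were chosen with earlier results of these data known.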

Additional observations from a re-analysis of the deposited data

Results flagged for a closer look

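The strain difference in kidney at 6 months differed from the mean of the differences at 1 and 3 months for 376 genes by limma, and the named genes among them are listed here with the log2 difference between those fold changes. Antibody and B lineage genes moved upward, by 4.526 for Ighg3, 4.374 for Ighg2c, 3.125 for Ighg2b, 2.999 for Ms4a1, 2.098 for Pou2af1, 2.085 for Mzb1, 1.766 for Cd22, 1.572 for Ighm and 1.431 for Iglc2. Myeloid and other leukocyte genes did so by 2.558 for Itgam, 2.274 for Clec4a1, 1.953 for Cd53, 1.717 for Cd83, 1.631 for Clec2d, 1.626 for Clec12a and 1.337 for Cxcr4. Cytokine, chemokine and sensor genes moved by 1.896 for Il1b, 1.806 for Ccl5, 1.784 for Tlr7, 1.543 for Ccl7 and 1.497 for Aim2. Ccl7 lost this call under 11 of 12 alternatives, Ccl5 under 10, Clec2d under 8 and Aim2 under 7. Ccl5, Tlr7, Cd83, Clec2d and Cxcr4 were not called at 6 months itself (limma adjusted p = 0.081 to 0.303).

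Other genes with an upward difference were Lcn2 at 2.876, Krt14 at 1.688, Cyp4a12a at 1.635, Vcam1 at 1.392, Cyp4a10 at 1.371, Rgs5 at 1.308 and Ptpro at 1.03. The MHC class II gene H2-Ea-ps was at 1.435, a call lost in edgeR and without C57BL/6 replicate 2. Downward differences were -0.7698 for Hsd17b14, -0.9207 for Srebf2, -1.035 for Kdr, -1.861 for Esm1, -1.975 for Slc17a2, -2.004 for Slc22a19, -2.057 for Car5a, -2.48 for Ccdc170, -2.628 for Slc10a2, -3.324 for Myh1, -3.592 for Slc22a26, -3.647 for Rnf24, -3.786 for Prok1 and -4.506 for Hdc. Of the 44 named genes with such a difference, 10 kept the call under every alternative tried.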

How the results depend on the processing

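The 818 calls at 6 months became 490 when only protein-coding genes were fitted, with 266 higher against 498 in the full table. Leaving out 1 library gave 488 to 750 calls in all, 312 to 510 higher and 176 to 263 lower. Other settings gave 812 (edgeR), 821 (median-of-ratios scaling), 816 (no filter), 772 (pseudocount 0.1), 823 (pseudocount 1) and 984 (only the compared groups). The 382 genes called in the same direction at all ages became 309 to 336 with 1 library left out. The 376 genes of the age difference became 0 when only 3 months was compared and 30 to 315 with 1 library left out. The spleen's 796 became 520 with only the compared groups and 395 to 732 with 1 library left out, and the brain's 647 became 380 and 428 to 581.

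The data do not show that the replicate numbers pair the mice. Same-numbered libraries of the strains deviated together with correlations of -0.01, 0.06 and 0.25, and differently numbered ones with correlations of -0.18 to 0.15. With the replicate block, 822 genes were called at 6 months, 377 at all ages, 302 for the age difference, 776 in spleen and 577 in brain.

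Of 121 named genes called at 6 months, 76 kept the call under every alternative, 45 lost it under at least 1 and 0 reversed direction. With 3 libraries a group, a fit without 1 of them has fewer samples, and calls near the threshold depend on that. Depth limits statements on genes near 0.3 CPM, the level of 3 reads in the shallowest kidney library of 6 months. No batch is named in the labels.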

Other observations

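Gene classes other than protein-coding genes and processed pseudogenes also held many calls in kidney at 6 months. Of 243 long intergenic RNAs tested, 17 were higher in NZB/W-F1 and 20 were lower, together 15.2%. Of 174 antisense RNAs, 5 were higher and 14 were lower, 10.9%, and the strand setting of the counting is not given in the sources used here. Of 24 unprocessed pseudogenes, 10 were higher and 2 were lower, 50%. Of these 10, 5 had no C57BL/6 library at 1 CPM and so passed the filter through NZB/W-F1 libraries alone. The same held for 10 of the 17 higher long intergenic RNAs.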
